A study of Mus musculus with 20 samples.

Results

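The genes described are Retnla, Chil3, Ear2, Rnase2a, Arg1, Mrc1, Cd163 and Mgl2, which mark alternatively activated macrophages or belong to the eosinophil-associated ribonucleases. They were chosen by name, with earlier results of these same libraries known, and they are 8 of the 18722 genes in the table. All 8 had at least 1 FPKM (fragments per kilobase of gene, scaled to library size) in at least 5 libraries, the minimum that 12687 genes met and were tested at. Rnase2a met it only with the Solution libraries counted.

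The libraries were made with a stranded mRNA kit from total RNA of mouse tumours grown from U14 cells, a line of cervical cancer. There were 4 groups of 5 libraries: Solution, the control; Plerixafor, a small molecule that blocks CXCR4, the receptor for a chemokine; anti-PD-1, an antibody that blocks the T cell checkpoint PD-1; and Combination, both agents. No strain, genotype, age, dose or time is given in the labels, and no transgene is named for these tumours. The labels call each sample a tumour of cervical cancer cells, and they name no sort that would remove host cells. In such bulk samples fewer cells of a type and less RNA of a gene per cell cannot be told apart.

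Alternative activation is the state that macrophages enter when the cytokines IL-4 and IL-13 engage the receptor chain IL-4Rα and the transcription factor STAT6. In the mouse it is known by secreted proteins such as the resistin-like protein of Retnla and the chitinase-like lectin of Chil3, by the enzyme arginase of Arg1, and by surface lectins and scavenger receptors. In tumours, macrophages of this kind are associated with tissue repair and with restraint of T cells. Eosinophils respond to another cytokine, IL-5, and carry ribonucleases related to Ear2 and Rnase2a.

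All 8 genes had a lower mean FPKM in each of the 3 treated groups than in the Solution group. Retnla had the highest level of the 8 in Solution, with 1108 ± 418 FPKM (mean ± SD, n = 5 here and throughout) in the Solution group and 47.3 ± 35.3 in the Combination group. On the log2(FPKM + 1) scale the 4 secreted genes Retnla, Chil3, Ear2 and Rnase2a had the widest gaps under Plerixafor and Combination, while in the anti-PD-1 group Arg1, at -2.67, had a wider gap than Retnla (-2.27) or Ear2 (-2.38). Because the genes were picked with such differences known, their levels against Solution are given as a description, with no test. The 5 libraries of each group were treated as replicates, but the labels do not say that each came from a separate animal, so the p-values speak only of library-to-library spread, which may be technical.

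Depth, recovered from the steps of the FPKM values, was 16565807 to 19833872 reads per library. By limma, 9577 of the 12687 tested genes (75.5%) passed an adjusted p of 0.05 between the Plerixafor and Solution groups, so a low or high value there was common. Between the anti-PD-1 and Solution groups 1454 genes (11.5%) passed. RNA of skeletal muscle was high in 4 of the 5 anti-PD-1 libraries: the FPKM of 10 muscle genes summed to 87967, 24740, 10645, 161 and 31080 in its libraries 1 to 5, against 7.51 to 1423 in Solution. Acta1, the actin of skeletal muscle, was higher there by 6.59 on the log2 scale (SE 1.69, limma adjusted p = 0.0222), and Ckm, its creatine kinase, by 6.66 (SE 1.68, adjusted p = 0.0214). The part of this tissue in the anti-PD-1 values below was not tested. A few libraries stood apart from their group. In anti-PD-1 library 1, the one with most muscle RNA, 14 general macrophage genes had a mean log2(FPKM + 1) of 4.95, against 7.01 to 7.91 in the other 4 libraries of that group. Plerixafor library 5 had the highest level in its group of every one of the 8 genes, with a macrophage mean of 6.83 against 5.25 to 5.90. For the 8 genes and for the list medians and counts that moved, values without the library concerned are given as well. Anti-PD-1 library 4 was the lowest of its group for Retnla, Ear2, Rnase2a, Cd163 and Mgl2. Values without it are given in some comparisons only.

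Retnla encodes a secreted resistin-like protein that IL-4 and IL-13 induce strongly in mouse macrophages. Its FPKM was 1127, 698, 1673, 707 and 1335 in Solution libraries 1 to 5. The anti-PD-1 libraries had 346, 370, 706, 22.3 and 228. The Plerixafor libraries had 12.8, 13.9, 9.61, 29.1 and 307. Every Plerixafor library lay below every Solution library, and Plerixafor library 5 stood far above the other 4 of its group. The Combination libraries had 88.9, 73.4, 46.9, 26.1 and 1.3, also wholly below Solution, while the anti-PD-1 range reached into the Solution range by a narrow margin, 706 against 698. The log2 difference from Solution on the log2(FPKM + 1) scale was -5.18 for Plerixafor, -2.27 for anti-PD-1 and -5.18 for Combination, each with a standard error (SE) of 1.04. Without Plerixafor library 5 the Plerixafor difference was -6.03 (SE 0.96). These 3 differences share the Solution libraries. By median the order was Solution (1127), anti-PD-1 (346), Combination (46.9) and Plerixafor (13.9).

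The 250 bases before the start of Retnla (RefSeq, GRCm38.p6, chr16:48842359-48842608, plus strand) are shown because they hold a gapped palindrome, TTC and GAA separated by any 4 bases, the form of element that STAT6 prefers. Capitals mark that match, at -145 from the start, and the sequence is written 5′ to 3′.
Retnla: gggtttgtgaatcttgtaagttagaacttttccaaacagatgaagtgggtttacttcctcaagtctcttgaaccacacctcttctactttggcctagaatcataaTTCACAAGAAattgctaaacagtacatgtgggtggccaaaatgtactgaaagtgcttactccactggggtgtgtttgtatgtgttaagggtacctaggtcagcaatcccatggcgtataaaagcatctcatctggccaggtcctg
For Chil3, the matching window (chr3:106167565-106167814, minus strand) held no such palindrome but 1 copy of the shorter STAT element TTCNNNGAA, at -172, in capitals.
Chil3: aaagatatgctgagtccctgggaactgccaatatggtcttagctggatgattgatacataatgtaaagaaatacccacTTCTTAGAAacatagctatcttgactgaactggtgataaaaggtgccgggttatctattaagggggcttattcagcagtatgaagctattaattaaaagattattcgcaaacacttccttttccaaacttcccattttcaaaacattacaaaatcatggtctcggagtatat
A promoter window was matched for 7 of the 8 genes, and for Arg1 none was matched. Both strands were searched. The palindrome with 4 bases between was present in Retnla alone of the 7, and in 1917 of 32536 mouse windows of the same length (5.89%). TTCNNNGAA was present in Chil3 alone, and in 7.04% of all windows. TTNNNCAA, a form of C/EBP element, had 3 matches in Retnla, 1 in Chil3 and none in Mrc1, and was in 33.3% of all windows. None of the STAT matches overlapped a C/EBP match. A match is a stretch of letters only, and the build of these windows differs from that of the deposited values, so no coordinate was carried between them.

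**Figure D1:**
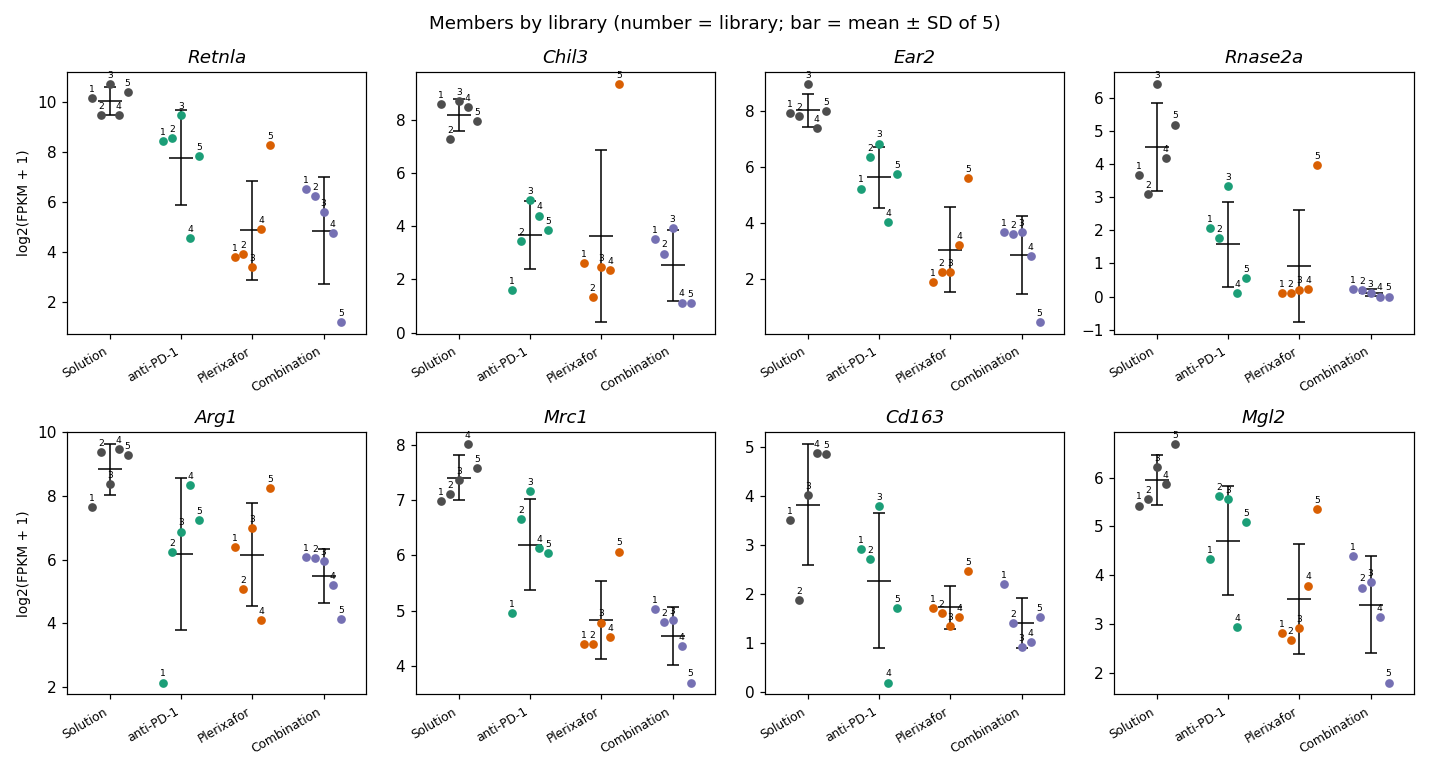
Level of the 8 genes in each of the 20 libraries, as log2(FPKM + 1) on the y axis, by group on the x axis; points carry the library number, and the lines give the mean ± SD of 5 libraries. The Solution mean is the highest in each panel, though Solution library 2 is low for Cd163. Plerixafor library 5 sits above the other 4 Plerixafor points in all 8 panels, and for Chil3 above every Solution point.

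Chil3 encodes a chitinase-like lectin that binds sugar polymers without cutting them and is secreted by alternatively activated macrophages. The Solution libraries had 386, 152, 414, 353 and 244 FPKM. The anti-PD-1 libraries had 2.04, 9.91, 30.7, 20.1 and 13.6. No anti-PD-1 library reached the Solution range, so for this gene, unlike Retnla, the antibody group was wholly separate from the control. The Plerixafor libraries had 5.12, 1.52, 4.57, 4.15 and 651. Plerixafor library 5 exceeded the highest Solution library, 414, while the other 4 were at or below 5.12. The Combination libraries had 10.4, 6.83, 14.3, 1.19 and 1.18, all below Solution. The log2 difference from Solution was -4.56 for Plerixafor, -4.53 for anti-PD-1 and -5.66 for Combination (SE 1.12 each). Without Plerixafor library 5 the Plerixafor difference of Chil3 was -5.99 (SE 0.65), and without anti-PD-1 library 1 that of the antibody was -4.01. By median the treated groups ran from 13.6 (anti-PD-1) through 6.83 (Combination) to 4.57 (Plerixafor), and their ranges overlapped.

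Ear2 and Rnase2a encode ribonucleases of the eosinophil-associated family, small secreted enzymes of the ribonuclease A type. Ear2 had 240, 223, 498, 167 and 252 FPKM in the Solution libraries. It had 36.4, 79.7, 113, 15.2 and 52.2 in the anti-PD-1 libraries. It had 2.67, 3.72, 3.78, 8.35 and 47.6 in the Plerixafor libraries. All 3 treated groups lay below the Solution range, since the Combination libraries had 11.9, 11.2, 11.8, 6.02 and 0.373. The log2 difference of Ear2 from Solution was -4.97 for Plerixafor, -2.38 for anti-PD-1 and -5.16 for Combination (SE 0.71 each), and the Plerixafor difference was -5.61 without library 5.

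Rnase2a was the scarcest of the 8 in the Combination tumours. In Solution it had 11.8, 7.52, 85.2, 17.2 and 35.7 FPKM, from 96 to 1113 reads. In the anti-PD-1 libraries it had 3.23, 2.43, 9.17, 0.073 and 0.484 FPKM. Anti-PD-1 library 3 lay just inside the Solution range and the others below it. Plerixafor libraries 1 to 4 had 0.0791, 0.0771, 0.157 and 0.166 FPKM, and library 5 had 14.6. Libraries 1 to 4 of that group thus rested on 1 or 2 reads each, while library 5, with 176 reads, lay inside the Solution range. The 5 Combination libraries held 2, 2, 1, 0 and 0 reads, 5 in all, and the 2 libraries without a read allow up to 0.234 and 0.232 FPKM at 3 reads, for counting error only. The log2 difference from Solution was -3.59 for Plerixafor, -2.94 for anti-PD-1 and -4.41 for Combination (SE 0.74 each), and the Plerixafor difference was -4.35 without library 5. At such low levels the added value of 1 sets much of that size, and with 0.1 in its place the Combination difference was -7.03.

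The windows before Ear2 (chr14:44102404-44102653, plus strand) and Rnase2a (chr14:51256113-51256362, minus strand) are shown together because the genes are related and both were low in the same groups. Capitals mark the longest run that both share, 25 bases.
Ear2: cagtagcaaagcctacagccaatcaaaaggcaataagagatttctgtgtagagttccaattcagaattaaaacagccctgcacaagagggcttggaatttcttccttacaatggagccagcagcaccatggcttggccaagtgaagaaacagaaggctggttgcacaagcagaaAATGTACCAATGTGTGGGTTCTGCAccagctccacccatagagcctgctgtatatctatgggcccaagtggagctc
Rnase2a: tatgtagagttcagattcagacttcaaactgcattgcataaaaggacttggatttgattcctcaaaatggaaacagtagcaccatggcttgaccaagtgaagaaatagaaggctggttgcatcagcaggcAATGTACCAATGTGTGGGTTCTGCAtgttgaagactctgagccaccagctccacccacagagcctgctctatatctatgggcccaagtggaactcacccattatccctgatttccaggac
In a pairwise alignment 178 of 206 aligned bases (86.4%) were identical. Neither window held the STAT6 palindrome or TTCNNNGAA, and TTNNNCAA had 2 matches in Ear2 and 3 in Rnase2a.

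In the Solution group the relatives of these genes had far lower means than Retnla, Chil3 or Ear2, per length. This did not hold beside Rnase2a in the Combination group, where Ear6 had a mean of 0.0921 FPKM and Rnase2a 0.0804. Ear1 reached at most 0.425 FPKM in any library, Ear10 0.227 and Rnase2b 0.399, so most of the signal of the family was assigned to Ear2. Ear6 had 1.38 ± 0.669 FPKM in Solution and at most 0.403 in any treated library. Reads can be shared among such copies, which makes each copy's own level uncertain. Chil4, the closest relative of Chil3, was at most 0.298 FPKM, and Chil1 had 6.02 ± 6.66 in Solution with 17.6 in library 3. Retnlb, an intestinal relative of Retnla, was at most 0.0738. Retnlg, a relative made by neutrophils, fell from 63.1 ± 47.8 FPKM in Solution to 9.59 ± 13.5 under Plerixafor (log2 difference -3.02 ± 0.66 SE, limma adjusted p = 0.000467). Retn, the resistin of mouse fat cells, fell from 13.4 ± 12.8 to 1.44 ± 1.90 FPKM (log2 difference -2.19 ± 0.87 SE, limma adjusted p = 0.0294), a call lost when any of 6 libraries was left out.

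Arg1 encodes the cytosolic arginase that turns arginine into ornithine and urea. The Solution libraries had 200, 665, 331, 715 and 628 FPKM. The anti-PD-1 libraries had 3.39, 74.3, 117, 325 and 151, so that library 1 was 1 extreme and library 4 reached well into the Solution range. The Plerixafor libraries had 83.5, 32.6, 126, 16 and 303, and library 5 alone reached the Solution range. The Combination libraries had 67.2, 65.8, 61.5, 35.6 and 16.4, the narrowest of the 4 ranges and all below Solution. The log2 difference from Solution was -2.68 for Plerixafor, -2.67 for anti-PD-1 and -3.35 for Combination (SE 0.92 each). It was -3.20 for Plerixafor without library 5, and for anti-PD-1 -1.66 without library 1. The 3 treated groups overlapped one another.

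Mrc1, Cd163 and Mgl2 encode surface receptors. Mrc1, the macrophage mannose receptor, had 125, 137, 163, 258 and 190 FPKM in Solution and 30, 99.8, 142, 69.4 and 65.2 in the anti-PD-1 libraries. It had 20.1, 20, 26.6, 21.9 and 66.2 in the Plerixafor libraries and 31.7, 26.7, 27.5, 19.6 and 12 in the Combination libraries. The Plerixafor and Combination ranges lay wholly below Solution, and the anti-PD-1 range overlapped it. The log2 difference of Mrc1 from Solution was -2.57 for Plerixafor, -1.22 for anti-PD-1 and -2.86 for Combination (SE 0.38 each). Without Plerixafor library 5 it was -2.88, and for anti-PD-1 -0.91 without library 1.

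Cd163, the scavenger receptor for haemoglobin bound to haptoglobin, had 10.4, 2.68, 15.2, 28.6 and 27.9 FPKM in Solution. It had 6.56, 5.61, 13, 0.145 and 2.28 under anti-PD-1, 2.27, 2.06, 1.54, 1.88 and 4.57 in the Plerixafor libraries, and 3.64, 1.64, 0.891, 1.03 and 1.88 in the Combination libraries. All 3 treated groups overlapped Solution, where library 2 was low. The log2 difference from Solution was -2.10 for Plerixafor, -1.56 for anti-PD-1 and -2.41 for Combination (SE 0.58 each), with -2.28 for Plerixafor without library 5. Mgl2, a galactose-binding lectin of macrophages and dendritic cells, had 42.0, 46.2, 73.6, 57.1 and 102 FPKM in Solution. It had 19.1, 48.0, 45.9, 6.66 and 33.0 under anti-PD-1, 5.99, 5.35, 6.56, 12.8 and 40.1 in the Plerixafor libraries, and 20.1, 12.4, 13.5, 7.86 and 2.48 in the Combination libraries. Plerixafor library 5 came just short of the lowest Solution library. The log2 difference of Mgl2 from Solution was -2.44 for Plerixafor, -1.25 for anti-PD-1 and -2.56 for Combination (SE 0.57 each), with -2.91 for Plerixafor without library 5. Clec10a, the other gene of this lectin pair, fell from 66.0 ± 21.4 FPKM in Solution to 20.9 ± 18.6 under Plerixafor (log2 difference -1.84 ± 0.47 SE, limma adjusted p = 0.00181).

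Of the 8 genes, 4 had every Plerixafor library below every Solution library (Retnla, Ear2, Mrc1 and Mgl2), as did 29.1% of all genes tested. Against Solution, 2 of 8 were wholly lower in the anti-PD-1 group (Chil3 and Ear2), beside 2.80% of all genes, and 7 of 8 in the Combination group (all but Cd163), beside 33.0%. Since the genes were chosen for these differences, nothing is read from the counts.

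**Figure D2:**
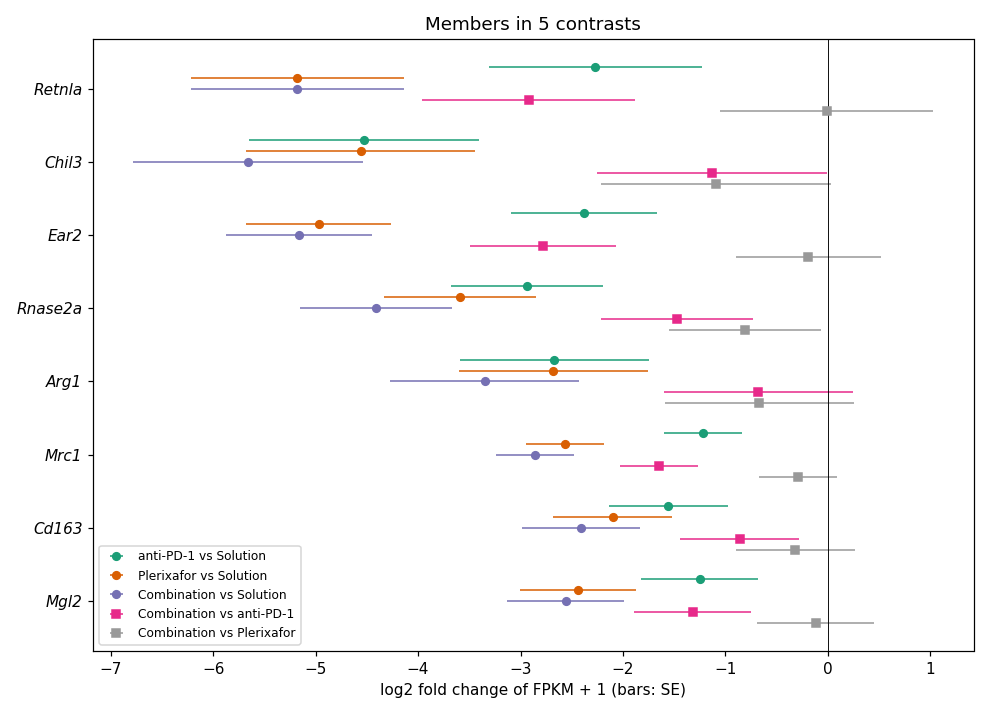
Log2 fold change of FPKM + 1 for each of the 8 genes in 5 comparisons, on the x axis, with bars of 1 SE. Circles are the comparisons with Solution, given as description, and squares compare Combination with each single agent; the squares against Plerixafor lie between -1.09 and -0.01, and 5 of those 8 values are positive without Plerixafor library 5.

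Combination against anti-PD-1 asks what Plerixafor added to the antibody, and it holds no Solution library. Of the 8 genes 4 were lower in the Combination group by limma with Benjamini-Hochberg adjustment over 12687 genes, beside 30.9% of all genes (74.6% passed in either direction). Earlier results of this comparison may also have been known when the genes were chosen. The same Combination libraries were also in the comparison with Solution, whose results were known. The adjusted p-values here therefore describe the chosen genes and are not independent support. For Ear2 all Combination libraries (at most 11.9 FPKM) lay below all anti-PD-1 libraries (at least 15.2), as in 15.8% of all genes. Its log2 difference was -2.78 ± 0.71 SE (limma adjusted p = 0.00176). Mrc1 fell by 1.65 on the log2 scale (SE 0.38, adjusted p = 0.000763), from 81.2 ± 41.9 to 23.5 ± 7.73 FPKM, with the ranges touching at 30 and 31.7. Both calls held under every alternative run. Retnla fell by 2.92 (SE 1.04, adjusted p = 0.0174), but without Combination library 5, whose 1.3 FPKM was the lowest of all, the fold change was -2.0 and the adjusted p 0.0629. Mgl2 fell by 1.32 (SE 0.57, adjusted p = 0.0458), a call near the threshold that was lost when any of 12 libraries was left out.

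The other 4 did not pass in this comparison. Rnase2a, which met the minimum for testing only with the Solution libraries counted, had a log2 difference of -1.47 ± 0.74 SE (adjusted p = 0.0819). It passed (adjusted p = 0.0373) at -1.84 when anti-PD-1 library 4 was left out. Cd163 had -0.86 (SE 0.58, adjusted p = 0.191), and likewise passed (adjusted p = 0.0222) at -1.37 without that library. Arg1 had -0.68 (SE 0.92, adjusted p = 0.512), and passed (adjusted p = 0.0329) at -1.69 when anti-PD-1 library 1, with 3.39 FPKM, was left out. Chil3 had -1.13 (SE 1.12, adjusted p = 0.366), with 15.3 ± 10.8 FPKM in the anti-PD-1 group and 6.78 ± 5.75 in the Combination group. A scaling by the median of ratios moved the median of all genes in this comparison from 0.15 to -0.02, so these values lie on a shifted scale by about that much.

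Combination against Plerixafor asks what the antibody added to Plerixafor. None of the 8 genes passed, nor did any of the 12687 tested genes (0%). At an unadjusted p under 0.05 there were 60 genes in this comparison, and limma-voom on the recovered reads also called 0. The log2 fold changes of the 8 genes ran from -1.09 (Chil3, SE 1.12) to -0.01 (Retnla, SE 1.04). Cd163 had -0.32 (SE 0.58), Mrc1 -0.29 (SE 0.38), Ear2 -0.19 (SE 0.71) and Mgl2 -0.12 (SE 0.57), all with an adjusted p of 1. The sign rested on single libraries. Without Plerixafor library 5, 5 of the 8 were positive, at 0.85 (SE 0.96) for Retnla, 0.45 (SE 0.62) for Ear2, 0.35 (SE 0.53) for Mgl2, 0.34 (SE 0.65) for Chil3 and 0.02 (SE 0.35) for Mrc1, and Rnase2a, Cd163 and Arg1 had -0.05, -0.13 and -0.15, again with an adjusted p of 1 by limma. Without Combination library 5, Retnla, Ear2 and Mgl2 were also positive, at 0.91, 0.41 and 0.28. No direction can be given for these genes between Combination and Plerixafor.

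Plerixafor library 5 carried much of the spread of its group. Chil3 there was 149-fold the median of the other 4 libraries, rank 1 of the 12687 tested genes (ranks are by the ratio of FPKM + 1). Retnla was 23.0-fold (rank 2), Rnase2a 124-fold (rank 7) and Ear2 12.7-fold (rank 11). Mgl2 was 6.40-fold, Arg1 5.22-fold, Mrc1 3.15-fold and Cd163 2.32-fold. The 14 general macrophage genes were 1.73-fold to 5.71-fold the median of the other 4, with a median of 2.78-fold. In the same library Ccl24, a chemokine that draws eosinophils, had 28.1 FPKM against 0.505 to 1.42 in the other 4, and the arginine transporter gene Slc7a2 had 33.5 against 2.96 to 7.10. In all, 1466 tested genes were at least 2-fold above every other Plerixafor library there, so the difference was not limited to these genes. Its part in the group values was not tested beyond leaving it out.

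Because general macrophage genes also differed between the groups, each gene was set beside them in the same library, as its log2(FPKM + 1) minus the mean of the 14 macrophage genes. Retnla lay 2.37 ± 0.58 above that mean in Solution, 0.86 ± 2.58 above it in the anti-PD-1 group, and -0.87 ± 1.5 and -0.89 ± 1.49 relative to it in the Plerixafor and Combination groups. Chil3 lay at 0.53 ± 0.63 in Solution, -3.24 ± 0.43 in anti-PD-1, -2.10 ± 2.63 in Plerixafor and -3.20 ± 0.80 in Combination. For Chil3 the 5 anti-PD-1 libraries were close together on this scale, from -3.56 to -2.49, and all below the lowest Solution library at -0.36. Ear2 went from 0.35 ± 0.62 in Solution to -2.69 ± 1.03 in Plerixafor and -2.88 ± 0.74 in Combination.

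The receptor genes differed less on this scale, with all libraries included. Relative to the macrophage genes, the differences from Solution in the 3 treated groups were -0.93 to -0.46 for Mrc1, -0.80 to -0.16 for Cd163 and -0.63 to -0.49 for Mgl2. They were -3.25 to -1.51 for Retnla, -3.77 to -2.63 for Chil3 and -3.23 to -1.63 for Ear2. Arg1 had -0.74 in Plerixafor, -1.91 in anti-PD-1 and -1.42 in Combination. Rnase2a had -1.66, -2.18 and -2.48 in the same order. It rested on 0 to 2 reads in each Combination library and in Plerixafor libraries 1 to 4, so the added value of 1 sets much of these sizes. With 0.1 in its place the Plerixafor and Combination differences of Rnase2a were -3.45 and -5.06. The gap between the secreted genes and the receptors was not tested. In the anti-PD-1 group, library 4 was lowest on this scale for Retnla (-3.37, others 0.66 to 3.48) and Ear2 (-3.89, others -1.45 to 0.27). It was also lowest for Rnase2a, Mrc1, Cd163 and Mgl2, and highest for Arg1. The anti-PD-1 differences of these genes thus rest in part on that library. Without Plerixafor library 5 the Plerixafor differences were -3.82 for Retnla, -3.78 for Chil3 (in place of -2.63), -3.40 for Ear2, -2.14 for Rnase2a and -0.99 for Arg1, and -0.70 to -0.07 for the receptor genes. Without anti-PD-1 library 1 those of the antibody group were -2.17 for Retnla, -3.75 for Chil3, -2.01 for Ear2, -2.80 for Rnase2a and -1.39 for Arg1, and the receptor genes had -0.64 (Mrc1), -1.45 (Cd163) and -0.88 (Mgl2), so that Cd163 then lay as low as Arg1.

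**Figure D3:**
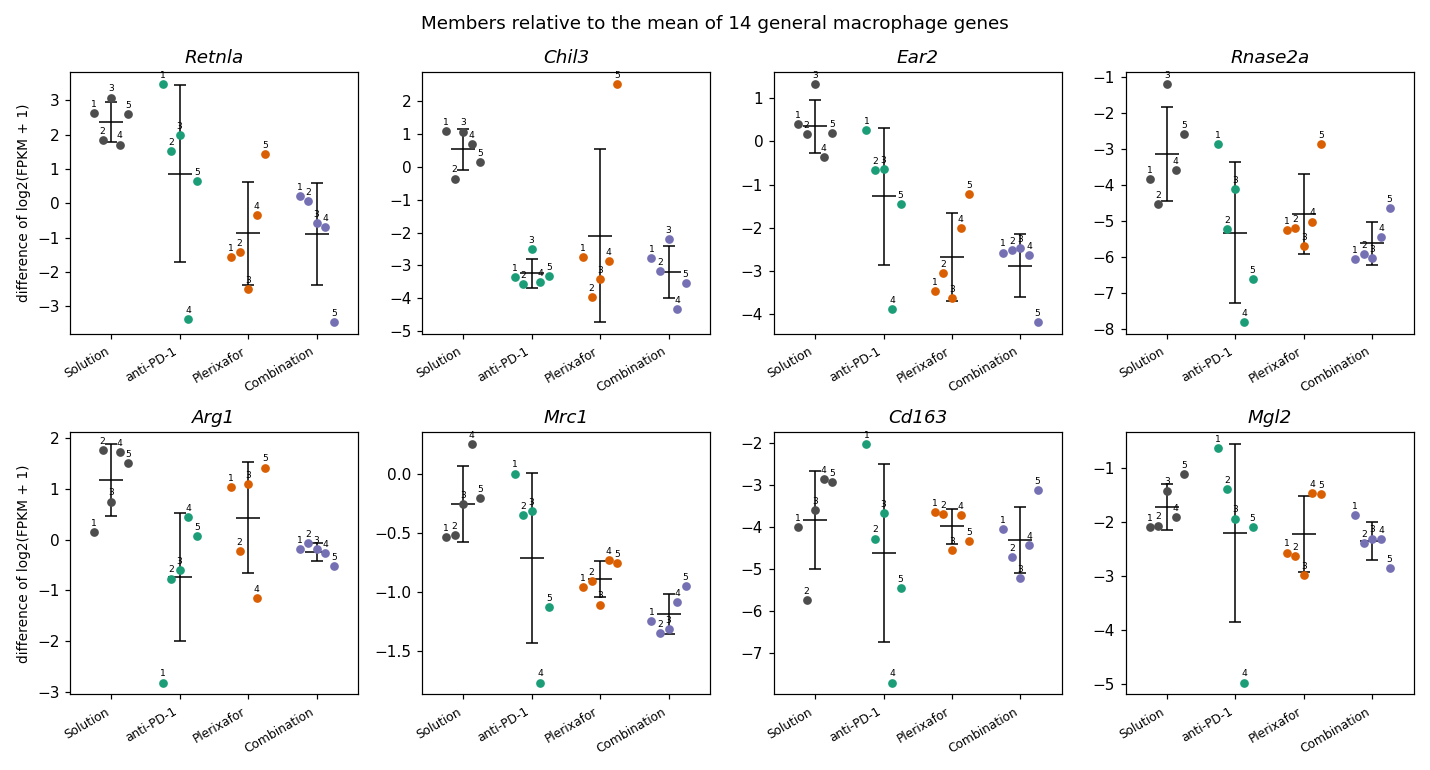
Each gene's log2(FPKM + 1) minus the mean of 14 general macrophage genes in the same library, on the y axis, by group on the x axis, with library numbers and mean ± SD of 5. Every gene has its highest mean in Solution. Cd163 and Mgl2 overlap between all groups, and for each other gene at least a single treated library reaches the Solution range.

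The genes around the 8 in the same pathways were described from 7 lists, drawn up with earlier results of these data known and holding none of the 8. Their counts and adjusted p-values therefore describe the listed genes and are not independent support for a change of a pathway. General macrophage genes were lower in the Plerixafor tumours: 13 of 14 fell and none rose by limma, beside 33.2% of all genes lower and 42.3% higher. Their median log2 fold change was -2.12, against 0.13 for all tested genes. Mertk, a receptor for the uptake of dying cells, fell from 26.5 ± 2.94 to 3.69 ± 3.37 FPKM (log2 difference -2.77 ± 0.45 SE, adjusted p = 2.02e-05). Cd68, a lysosomal protein gene of macrophages, fell by 2.69 (SE 0.49, adjusted p = 8.11e-05), and C1qb, a chain of complement C1q, by 2.45 (SE 0.47, adjusted p = 0.00012).

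Of the IL-4 and IL-13 signalling list, 13 of 18 tested genes fell under Plerixafor and none rose, with a median of -1.14. Of these, 4 (Il4, Il13, Il13ra2 and Ppargc1b) met the minimum of 1 FPKM in 5 libraries only with the Solution libraries counted, so the minimum itself favoured a lower value elsewhere, and no test of them is given. Of the other 14 genes 9 fell. Il4 itself had 2.48 ± 1.57 FPKM in Solution and 0.212 ± 0.329 under Plerixafor, and Il13 had 2.03 ± 1.01 and 0.263 ± 0.416. The receptor chain gene Il4ra fell from 63.9 ± 16.5 to 32.4 ± 9.54 FPKM (log2 difference -0.96 ± 0.38 SE, adjusted p = 0.0283), a call lost when any of 5 libraries was left out. Stat6 had 53.7 ± 3.55 FPKM in Solution and 48.7 ± 2.24 under Plerixafor, and did not pass (log2 difference -0.14 ± 0.20 SE, adjusted p = 0.545). Pparg, a nuclear receptor that sustains alternative activation, fell from 6.5 ± 2.43 to 0.871 ± 0.641 FPKM (log2 difference -2.0 ± 0.25 SE, adjusted p = 8e-07). It is also a gene of fat cells, and adipocyte markers were low in the same group: all 8 had a lower mean than in Solution, their summed FPKM was 40.7 to 204 against 51.6 to 1105, and Adipoq, the hormone adiponectin, fell by 2.21 (SE 0.94, adjusted p = 0.0412). The part of fat in the Pparg value was not tested. Il1rl1, the receptor for IL-33, fell by 1.80 (SE 0.26, adjusted p = 6.49e-06), Jak1, a kinase of cytokine receptors, by 1.40 (SE 0.18, adjusted p = 1.1e-06), and Cish, a feedback inhibitor of STAT signals, by 1.59 (SE 0.26, adjusted p = 2.09e-05).

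Among other genes of alternative activation, 22 of 23 fell under Plerixafor and 1 rose, with a median of -2.03. Alox15 and Il10 among them met the minimum only with the Solution libraries, and of the other 21 genes 20 fell and 1 rose. The list also holds Retnlg, which is among the neutrophil markers below. Cd36, a scavenger receptor for lipids that fat cells also make, fell from 146 ± 52.3 to 11.7 ± 6.22 FPKM (log2 difference -3.57 ± 0.34 SE, adjusted p = 2.82e-08). Igf1, a growth factor of repair macrophages, fell by 3.19 (SE 0.45, adjusted p = 4.68e-06). Cd200r1, an inhibitory receptor, fell by 2.45 (SE 0.38, adjusted p = 1.23e-05). The gene that rose was Ch25h, the cholesterol 25-hydroxylase, from 4.24 ± 2.94 to 10.4 ± 3.48 FPKM (log2 difference 1.26 ± 0.33 SE, adjusted p = 0.0023).

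Tissue-resident macrophage genes fell in 12 of 18 cases under Plerixafor and rose in none, with a median of -1.35. Slc40a1, the iron exporter ferroportin, fell by 2.85 (SE 0.27, adjusted p = 2.41e-08), and Selenop, a selenium carrier, by 3.33 (SE 0.44, adjusted p = 2.18e-06). Lyve1 had 5.84 ± 2.95 FPKM under Plerixafor and 5.65 ± 2.99 in Solution and did not pass (adjusted p = 0.836 by limma). Classical activation genes were mixed: 8 of 17 fell, 1 rose, and the median was -0.80. Cd38, an enzyme that consumes NAD, fell by 2.34 (SE 0.48, adjusted p = 0.000264). The riser was Il23a, a subunit of the cytokine IL-23. It was at 0 to 0.159 FPKM in the Solution libraries and 4.74 to 13.3 in the Plerixafor libraries (log2 difference 3.20 ± 0.21 SE). Il23a met the minimum only with the Plerixafor or Combination libraries counted. The minimum itself thus favoured a higher value there, and no test of it is given.

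Eosinophil genes fell under Plerixafor in 8 of the 8 tested, with a median of -2.22. Il5ra met the minimum only with the Solution libraries, and 7 of the 15 eosinophil genes in the table did not reach it. Siglecf, a lectin of eosinophils and alveolar macrophages, fell from 8.21 ± 2.95 to 0.621 ± 0.634 FPKM (log2 difference -2.52 ± 0.32 SE, adjusted p = 1.1e-06). Ccr3, the eotaxin receptor, fell from 8.67 ± 3.43 to 0.739 ± 0.832 (log2 difference -2.49 ± 0.37 SE, adjusted p = 6.88e-06), and its ligand gene Ccl11 from 122 ± 15.4 to 14.6 ± 16.2 (log2 difference -3.39 ± 0.53 SE, adjusted p = 1.36e-05). Cebpe, a transcription factor of granulocytes, fell by 2.07 (SE 0.26, adjusted p = 1.12e-06).

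The defining granule genes of eosinophils did not follow Ear2 in level. Epx, eosinophil peroxidase, was at most 0.402 FPKM and Prg3 at most 0.248 in any library, while Prg2, major basic protein, had 4.41 ± 1.57 in Solution. Over 6 eosinophil markers (Epx, Prg2, Prg3, Siglecf, Il5ra and Ccr3) the summed FPKM was 12.3 to 32.2 in the Solution libraries, 4.52 to 17.4 in anti-PD-1, 0.694 to 6.72 in Plerixafor and 0.35 to 3.76 in Combination. Ear2 alone, at 167 to 498 FPKM in Solution, was far above that sum. Which cells held the Ear2 and Rnase2a RNA was not tested, and the word eosinophil stands here for the gene family only. Chil3, Ear2 and Siglecf are also genes of alveolar macrophages. Over 10 genes of lung epithelium and alveolar macrophages the summed FPKM was 27.6 to 107 in Solution, 4.04 to 67.2 in anti-PD-1, 2.63 to 16 in Plerixafor and 1.81 to 13.1 in Combination, and 9 of the 10 had a lower mean under Plerixafor than in Solution. Most of that sum was Car4, a carbonic anhydrase, which fell from 39.1 ± 19.2 to 4.94 ± 4.89 FPKM (log2 difference -2.94 ± 0.54 SE, adjusted p = 7.54e-05), while Plet1 fell from 6.96 ± 7.07 to 1.0 ± 0.499 (log2 difference -1.69 ± 0.42 SE, adjusted p = 0.00131). The surfactant genes Sftpc, Sftpb and Sftpa1, which define lung epithelium, had at most 0.0717 FPKM in any library. Markers of other cells were lower under Plerixafor too, each gene of these lists by its mean: mast cell and basophil markers were at 55.5 to 355 summed FPKM in Solution and 26.7 to 90.3 under Plerixafor, 11 neutrophil markers at 291 to 584 and 17.0 to 107, 7 T cell markers at 132 to 226 and 15.3 to 92.4, 10 dendritic cell markers at 324 to 430 and 55.3 to 184, and 8 monocyte markers at 207 to 249 and 42.4 to 163. Their part in the result was not tested.

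**Figure D4:**
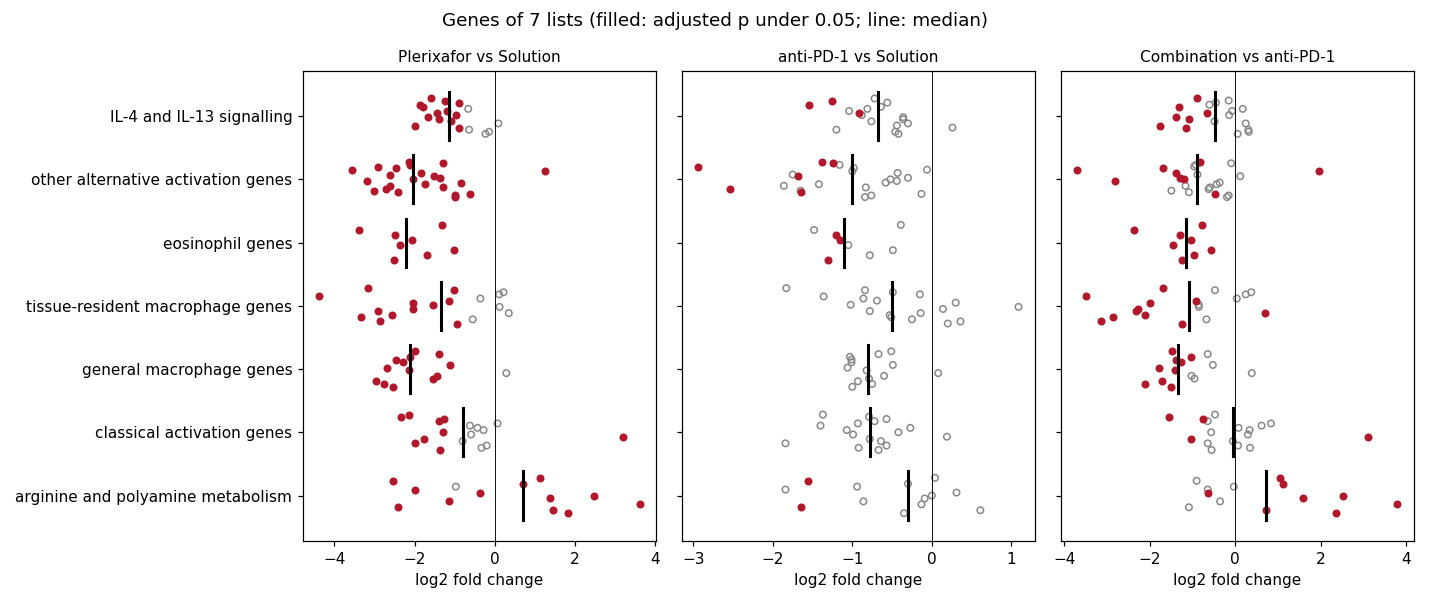
Log2 fold change of each tested gene of 7 lists, on the x axis, in 3 comparisons; filled points passed an adjusted p of 0.05, open points did not, and the black line is the list's median. Under Plerixafor most points lie below 0 in all lists except arginine and polyamine metabolism, where 7 of 13 genes rose.

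Against Solution, the anti-PD-1 group differed in fewer genes of these lists: 13 of 109 fell and none rose, beside 3.08% of all genes lower and 8.38% higher. Of the 13, 4 met the minimum only with the Solution libraries (Il4, Il13, Il13ra2 and Alox15) and are given without a test, which leaves 9 of 102. Il13 had 0.267 ± 0.406 FPKM in this group and Il4 0.757 ± 0.544. Of the other alternative activation genes 6 of 23 fell, with a median of -1.0: Ccl24 went from 33.2 ± 32.9 to 2.82 ± 2.70 FPKM (log2 difference -2.94 ± 0.70 SE, adjusted p = 0.0177), and Egr2, a transcription factor that follows IL-4 signals, from 14.3 ± 5.98 to 4.0 ± 2.03 (log2 difference -1.68 ± 0.30 SE, adjusted p = 0.0145). Ccl17, a chemokine for Th2 cells, fell by 1.24 (SE 0.29, adjusted p = 0.0168). Eosinophil genes fell in 3 of 8 cases, namely Cebpe, Siglecf and Ccr3, at -1.16, -1.30 and -1.20, and the call of Ccr3 was lost when any of 12 libraries was left out.

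None of the 14 general macrophage genes, the 18 tissue-resident genes or the 17 classical activation genes passed in the anti-PD-1 comparison, where their medians were -0.80, -0.50 and -0.78. Without anti-PD-1 library 1 those medians were -0.33, -0.23 and -0.33, that of the IL-4 and IL-13 list was -0.38 in place of -0.68, and that of the other alternative activation genes -0.61 in place of -1.0. Csf1r, the growth factor receptor of the lineage, had 151 ± 69.4 FPKM there and 236 ± 30.2 in Solution. Cd36 had 133 ± 24.3 against 146 ± 52.3 FPKM (log2 difference -0.06 ± 0.34 SE, adjusted p = 0.908). The count of 13 rested on the fit and on single libraries: it was 0 when only the 2 groups were fitted, 0 without anti-PD-1 library 5, 21 without library 3 and 32 without library 4.

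The Combination group was compared with the same Solution libraries. Against them 9 of 109 list genes rose and 79 fell, 7 of which met the minimum only with the Solution libraries, beside 42.0% and 34.1% of all genes (76.1% in either direction). The general macrophage median was -2.13, that of the eosinophil genes -2.34 and that of the other alternative activation genes -1.85. Il4 had 0.0756 ± 0.0424 FPKM, from 4 reads in 5 libraries. Il13 had 0.112 ± 0.109, from 12 reads.

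Combination against anti-PD-1 showed 46 of 109 list genes lower and 10 higher, beside 30.9% and 43.7% of all genes. All 8 eosinophil genes fell, with a median of -1.14, as did 9 of 14 general macrophage genes (median -1.33) and 8 of 23 other alternative activation genes (median -0.88). Cd36 fell by 3.70 (SE 0.34, adjusted p = 1.74e-08) and Slc40a1 by 3.14 (SE 0.27, adjusted p = 6.13e-09). Pparg fell by 1.75 (SE 0.25, adjusted p = 3.97e-06). Cd36 and Pparg are also genes of fat cells, and Adipoq fell here by 2.43 (SE 0.94, adjusted p = 0.0266). Summed adipocyte markers were 19.5 to 167 FPKM in Combination and 13.4 to 2449 in anti-PD-1. The part of fat in these values was not tested. Marco, a scavenger receptor, rose from 0.467 ± 0.247 to 1.58 ± 1.13 FPKM (log2 difference 0.71 ± 0.31 SE). It met the minimum only with Plerixafor and Combination libraries counted, so the minimum itself favoured a higher value there. Its call was lost in 18 of 25 alternatives, among them leaving out Plerixafor library 5 or anti-PD-1 library 1. Without anti-PD-1 library 1 the count of genes lower was 71. None of the 109 list genes passed between Combination and Plerixafor, where the list medians lay between -0.15 and 0.05 and those of 5 lists turned from negative to positive without Plerixafor library 5, reaching 0.18 for the eosinophil genes.

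Arg1 belongs to a second set, the genes that move, make and use arginine, of which 13 were tested. Under Plerixafor 7 of them rose and 5 fell, beside 42.3% and 33.2% of all genes, so these counts lay near the background and nothing is read from them. The transporter gene Slc7a1 had 3.93 to 4.31 FPKM in the Solution libraries, 1.38 to 8.27 in anti-PD-1, 40.7 to 74.3 in Plerixafor and 54.2 to 77.8 in Combination. The latter 2 groups did not overlap the former 2, and the log2 fold change under Plerixafor was 3.61 (SE 0.24, adjusted p = 3.39e-10). Odc1, ornithine decarboxylase, which starts polyamine synthesis from the product of arginase, rose from 41.5 ± 3.16 to 241 ± 62.3 FPKM (log2 difference 2.47 ± 0.20 SE, adjusted p = 3.99e-09). Srm, spermidine synthase, rose from 24.3 ± 1.61 to 89.8 ± 19.4 (log2 difference 1.82 ± 0.25 SE, adjusted p = 3.66e-06), and Sms, spermine synthase, from 6.47 ± 0.659 to 19.3 ± 2.40 (log2 difference 1.44 ± 0.21 SE, adjusted p = 5.67e-06).

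The genes of that set that fell with Arg1 were Arg2, Slc7a2, Nos2, Sat1 and Oat. Arg2, the mitochondrial arginase, fell from 11.7 ± 2.99 to 1.23 ± 0.739 FPKM under Plerixafor (log2 difference -2.54 ± 0.41 SE, adjusted p = 2.28e-05). Slc7a2, the arginine transporter of activated macrophages, fell from 38 ± 4.83 to 10.1 ± 13.2 (log2 difference -2.40 ± 0.50 SE, adjusted p = 0.000311). Nos2, the inducible nitric oxide synthase, which competes with arginase for arginine, fell from 50.3 ± 18.1 to 21.5 ± 26.5 (log2 difference -2.0 ± 0.87 SE, adjusted p = 0.0452), and Plerixafor library 5 had 66.0. In the anti-PD-1 group Arg2 (-1.56, SE 0.41, adjusted p = 0.0249) and Slc7a2 (-1.64, SE 0.50, adjusted p = 0.0426) fell and no gene of the set rose. The call of Slc7a2 was lost when any of 12 libraries was left out, and that of Nos2 under Plerixafor when any of 11 was. Combination exceeded anti-PD-1 in 7 of the 13, beside 43.7% of all genes, led by Slc7a1 at 3.80 (SE 0.24, adjusted p = 2.19e-10).

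**Figure D5:**
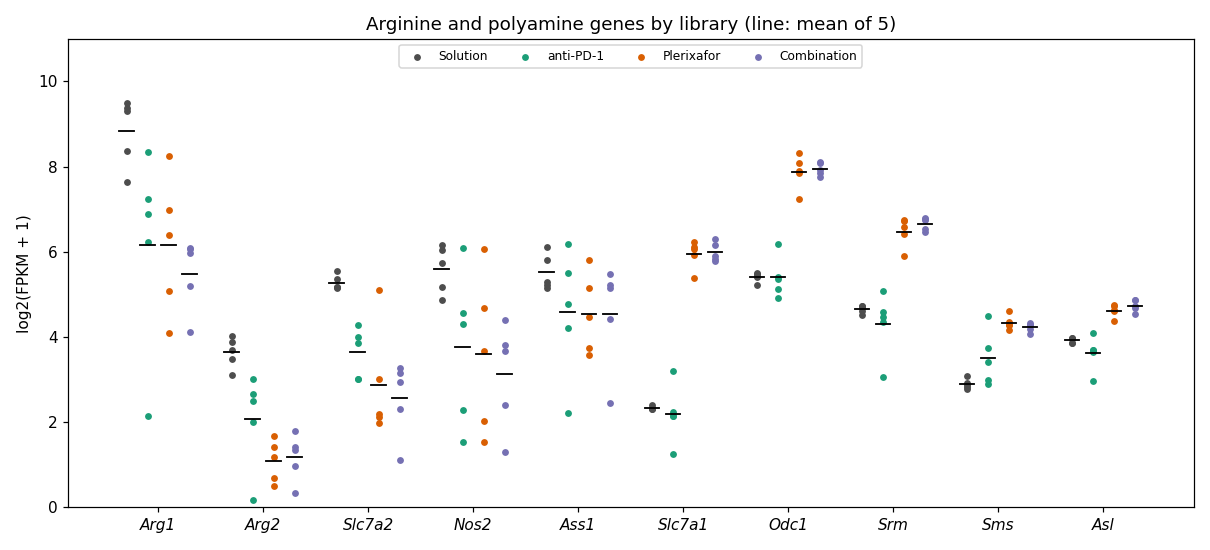
Arg1 and 9 genes of arginine and polyamine metabolism in each library, as log2(FPKM + 1) on the y axis, coloured by group, with a line at the mean of 5 libraries. Slc7a1, Odc1 and Srm are higher in every Plerixafor and Combination library than in any Solution or anti-PD-1 library, and Arg1 is highest in Solution.

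Within the groups, the 8 genes did not vary as 1 block. Pearson's r of log2(FPKM + 1), centred on each group's mean over 20 libraries, was 0.95 between Retnla and Ear2, 0.93 between Retnla and Mgl2 and 0.93 between Ear2 and Mgl2. Retnla was the gene most like Mgl2 among all tested, and Ear2 the gene most like Retnla. Arg1 had an r of 0.73 with Mrc1, and 0.59 without anti-PD-1 library 1, and of 0.63 with Chil3. Mrc1 had rank 2094 among the genes most like Arg1, and Arg1 rank 2145 among those most like Chil3, so many genes were closer. Arg1 varied little with the others, with an r of 0.10 with Retnla, 0.26 with Ear2, 0.25 with Mgl2, 0.08 with Rnase2a and -0.17 with Cd163. Anti-PD-1 library 4 shows this: it was lowest of its group for Retnla, Ear2, Rnase2a, Cd163 and Mgl2, yet highest for Arg1. Its general macrophage mean, 7.91, was the highest of all libraries, and its summed adipocyte markers, 13.4 FPKM, the lowest. The r of Chil3 with Retnla was 0.60, and 0.32 without Plerixafor library 5.

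The genes most like each of the others were Gpr35, Srgn and Nfkbia for Arg1 (0.97 each), Tmem26 (0.96), Pdgfc and Gapt (0.95 each) for Mrc1, and Cbr2 (0.92), Fcna (0.88) and C6 (0.83) for Cd163. Ccl24 (0.92), Ly6g6e (0.88) and Col6a5 (0.87) were most like Rnase2a. Hscb (0.94), Zfp362 (0.93) and Plpp6 (0.93) were most like Chil3, with Hscb at 0.84 without Plerixafor library 5. Besides each other, Retnla was most like Apod (0.94) and Timp3 (0.93), Ear2 like Lysmd2 (0.96) and Apod (0.95), and Mgl2 like Cadm3 (0.92). All these values share the libraries and their depth and cell make-up, and were not tested.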

How the data were processed

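The authors deposited 1 table of FPKM values, 1 column per library, for 18722 genes by symbol. Per the submitters' processing notes, the tools were HISAT2 2.1.0, DESeq2 1.28.1, StringTie 2.1.4 and HTSeq 0.11.2, on build GRCm39; their roles and the maker of the FPKM are not given in the sources used here, nor is strand in counting. Overlapping genes and near-identical copies can therefore share reads. Groups and library numbers came from the labels. For each gene the FPKM values were whole multiples of 1 step within 0.02 (18722 of 18722 genes), which gave reads of 16565807 to 19833872 per library; intervals and floors from them cover counting error only.

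Values were tested as log2(FPKM + 1) with limma 3.58.1 and R 4.3.3 (empirical Bayes with a trend, 1 fit of 20 libraries on group, 16 residual degrees of freedom) for genes at or above 1 FPKM in 5 or more libraries, with Benjamini-Hochberg adjustment within a comparison at 0.05, two-sided. Every adjusted p in the text is from this fit unless another is named, and a fold change on this scale understates that of low genes. The script was tested on simulated data.

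The 8 genes and the gene lists were chosen with earlier results of these data known. Named genes were the 8 and their families, up to 4 genes of smallest p per list and comparison with any that passed against the direction of most of its list, the 3 most alike genes per member, and defining markers. Others, such as Il4ra, Stat6, Il4, Il13, Lyve1, Csf1r and, in some comparisons, Cd36, Sms and Ccl24, were named after their values were seen. Alternatives were a pseudocount of 0.1, no filter, median-of-ratios scaling, the replicate number as a block, fitting the compared groups by themselves, and leaving out each library; limma-voom on the recovered reads was added after seeing the data. Promoter windows, 250 bases before the start, are from RefSeq, GRCm38.p6, matched by symbol.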

Additional observations from a re-analysis of the deposited data

Results flagged for a closer look

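Among the 8 genes in 4 groups, 8 of 32 sets of 5 libraries held a library far from the other 4, by the gap to the nearest library relative to the whole range. The rule marks about 1 in 20 sets of normally distributed values. FPKM values need not be normal and the 32 sets share the same 20 libraries, so nothing is read from the number of flagged sets. Plerixafor library 5 accounted for 7 of them, each time as the highest: Retnla with 307 FPKM (next 29.1), Chil3 with 651 (next 5.12), Ear2 with 47.6 (next 8.35), Rnase2a with 14.6 (next 0.166), Mrc1 with 66.2 (next 26.6), Cd163 with 4.57 (next 2.27) and Mgl2 with 40.1 (next 12.8). The other was Ear2 in Solution library 3, at 498 FPKM (next 252), a library that also held the most Rnase2a (85.2 FPKM), the most mast cell and basophil markers (355 summed FPKM) and, with library 5, skin keratinocyte genes (300 and 220 summed FPKM, against 11.6 to 16.6 in the other 3 Solution libraries). The part of these markers in the Ear2 value was not tested.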

How the results depend on the processing

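Rnase2a moved most with the processing. With a pseudocount of 0.1 its log2 fold change was -5.43 for Plerixafor and -7.03 for Combination against Solution (-3.59 and -4.41 as reported), -3.19 for Combination against anti-PD-1 (adjusted p = 0.0179, then called), and -3.45 and -5.06 relative to the macrophage genes (-1.66 and -2.48); limma-voom, chosen after seeing the data, gave -5.85 and -7.85. The Combination against anti-PD-1 call of Mgl2, at -1.32 throughout, was lost with no filter (adjusted p = 0.0605), with the replicate block (0.0656) and with only the groups compared (0.0733). The anti-PD-1 against Solution count of 13 list genes lower was 7 with a pseudocount of 0.1 and 0 with only the groups compared, a fit in which 0 of 11992 genes passed, 0 higher and 0 lower; limma-voom called 564 higher and 203 lower there, against 1063 and 391. Leaving out each library in turn gave, for Combination against anti-PD-1, -3.72 to -2.0 for Retnla, -1.84 to -1.02 for Rnase2a (called without anti-PD-1 library 4, adjusted p = 0.0373, or Plerixafor library 5, 0.0259), -1.69 to -0.14 for Arg1, -1.37 to -0.47 for Cd163 and -1.76 to -0.92 for Mgl2. The list counts ranged from 0 to 3 higher and 0 to 32 lower for anti-PD-1 against Solution, and from 37 to 71 lower for Combination against anti-PD-1. For Combination against Plerixafor, where nothing was called, 5 of the 8 genes changed sign in 11 cases: with median-of-ratios scaling Retnla was 0.02 (-0.01 as reported), and leaving out each library gave -0.42 to 0.91 for Retnla, -1.67 to 0.34 for Chil3, -0.48 to 0.45 for Ear2, -0.41 to 0.02 for Mrc1 and -0.37 to 0.35 for Mgl2. No other log2 fold change of the 8 genes changed sign, but relative to the macrophage genes Cd163 under Plerixafor (-0.16) was 0.08 or 0.06 without Solution library 4 or 5, and Mgl2 under anti-PD-1 (-0.49) was 0.20 without anti-PD-1 library 4, and the cause of the changes was not tested. Same-numbered libraries did not as a rule deviate together: over 30 pairs r was -0.753 to 0.506, and 7 pairs exceeded 0.1. Of 20 libraries, 2 correlated best with their own number. No pairing by number was seen, but this check cannot exclude one, because muscle, fat and immune content also differ between libraries. No 2 libraries of a group were copies (40 pairs, median chi-square per gene 2.03 to 83.63). Depth limits Rnase2a, Il4 and Il13 outside the Solution group, which rest on few reads.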
